A study of Arabidopsis thaliana with 18 samples.

Results

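Xyloglucan endotransglucosylase/hydrolases (XTHs) and expansins were followed across root and shoot of Arabidopsis seedlings kept without phosphate, with a control supply or with an excess. The list held 54 loci, 33 XTHs and 21 expansins (19 alpha and 2 beta). A locus was taken as measured where an array transcript was paired with it, and it alone, by the platform's probe annotation or by the study's supplementary tables. This gave a value to 30 of the 54 loci, among 38408 transcripts in all: 17 XTHs, 11 alpha-expansins and 2 beta-expansins. The other 24 loci were not analysed here. EXPA20 alone had more than 1 transcript, and the brighter of them over the 18 arrays was used.

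Growing plant cells are held by cellulose microfibrils that are coated and tied by xyloglucan. XTHs cut a xyloglucan chain and either join the new end to another chain or, in some members, release it to water, so they can loosen, rebuild or strengthen the wall. Expansins have no known hydrolytic activity and let wall polymers slip past each other at acid pH. Both are large families whose members differ in the organ and cell type that uses them. In roots they are known from the elongation zone, from root hairs and from the tissue that an emerging lateral root must pass, and some XTHs are known for a fast rise of their transcript after touch or hormone treatment.

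The plants were Col-0 wild type, grown hydroponically on sucrose-containing medium for 5 days and then moved for 7 days to medium with 0, 1.25 or 20 mM phosphate, called here P0, P1.25 (the control) and P20. Phosphate was given as the potassium salt, so potassium rose with it at P20, and at P0 potassium sulphate took its place. Total RNA of whole roots and whole shoots was hybridised to AraGene 1.0 ST arrays, with 3 independent biological experiments for each of 6 groups. Values are log2 intensities after robust multi-array averaging (RMA), so a difference of 1 is a 2-fold change, and levels of different genes are not set against each other. In whole organs, fewer cells of a type and less RNA per cell cannot be told apart.

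The 10 members XTH4, XTH10, XTH11, XTH22, XTH23, XTH24, XTH31, EXPA1, EXPA11 and EXPA17 got their name only from the study's tables, which list transcripts by their response in these same samples. Their P0 values are therefore given as a description, without a p-value, and counts are also given for the 20 members named by the platform (10 XTHs and 10 expansins), whose naming used no measured value. Of the 30 members, 11 lay above the median of the array on all 18 arrays and 1, XTH20, on none. Members varied least among the P0 replicates, with a median SD of 0.13 in root and 0.11 in shoot, against 0.27 and 0.28 at P1.25 and 0.39 and 0.33 at P20. In the P1.25 and P20 groups replicate 3 stood farthest from the others and held 41.9% to 47.3% of the squared deviation over all transcripts. The tissue labels were checked with 5 of 13 root markers and 5 of 11 shoot markers that had a transcript, 4 and 3 of them named only by the study's tables. At P1.25 all 5 root markers were higher in root and all 5 shoot markers higher in shoot, by at least 2-fold and with an adjusted p under 0.1.

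Without phosphate, XTH transcripts moved in both directions, while no expansin passed the test upwards in either tissue with all arrays in the fit. The exception was EXPA1, which passed upwards in root (1.14) with replicate 3 of the root controls left out. With no fold limit EXPA20 would also pass upwards in root (0.58), and EXPA9 (0.67) and EXPA18 (0.76) in shoot. Upward calls were few over all transcripts too, at 4.69% in root and 6.12% in shoot. The count of 0 among 13 expansins is near those shares. In root 14 of the 30 members differed between P0 and P1.25 by more than 2-fold at an adjusted p under 0.1 (limma), 7 higher and 7 lower. Over all transcripts 9.23% passed the same test, 4.69% upwards and 4.54% downwards. All 7 higher members were XTHs (XTH11, XTH18, XTH22, XTH23, XTH24, XTH27 and XTH29). The 7 lower ones were 3 XTHs (XTH20, XTH21 and XTH31) and 4 expansins (EXPA15, EXPA17, EXPB1 and EXPB3). Among the 20 platform-named members 3 were higher and 5 lower, which is 40% against 7.37% of all platform-named transcripts (4.94% upwards and 2.44% downwards). The median change was 0.34 over the 17 XTHs and -0.64 over the 13 expansins, beside -0.090 over all transcripts. Over platform-named members alone it was 0.02 for the 10 XTHs and -0.55 for the 10 expansins, beside -0.027 over platform-named transcripts.

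In shoot 14 members passed as well, 8 higher and 6 lower, against 13.7% of all transcripts (6.12% upwards and 7.62% downwards). The 8 higher members were again all XTHs (XTH10, XTH11, XTH18, XTH19, XTH22, XTH23, XTH24 and XTH29). The lower ones were XTH4, XTH32, EXPA1, EXPA8, EXPA11 and EXPB3. Among the platform-named members 3 were higher and 3 lower, which is 30% against 10% of platform-named transcripts (5.95% upwards and 4.08% downwards). The median change was 0.86 over the XTHs and 0.09 over the expansins, beside -0.105 over all transcripts. Over platform-named members alone it was 0.39 for the XTHs and 0.19 for the expansins, beside -0.022 over platform-named transcripts. 7 members passed in both tissues, all in the same direction, 7 in root alone and 7 in shoot alone. Of those that passed in both, XTH18, XTH29 and EXPB3 were platform-named. These counts were not made over all transcripts. Root and shoot were compared with separate control arrays.

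**Figure D1:**
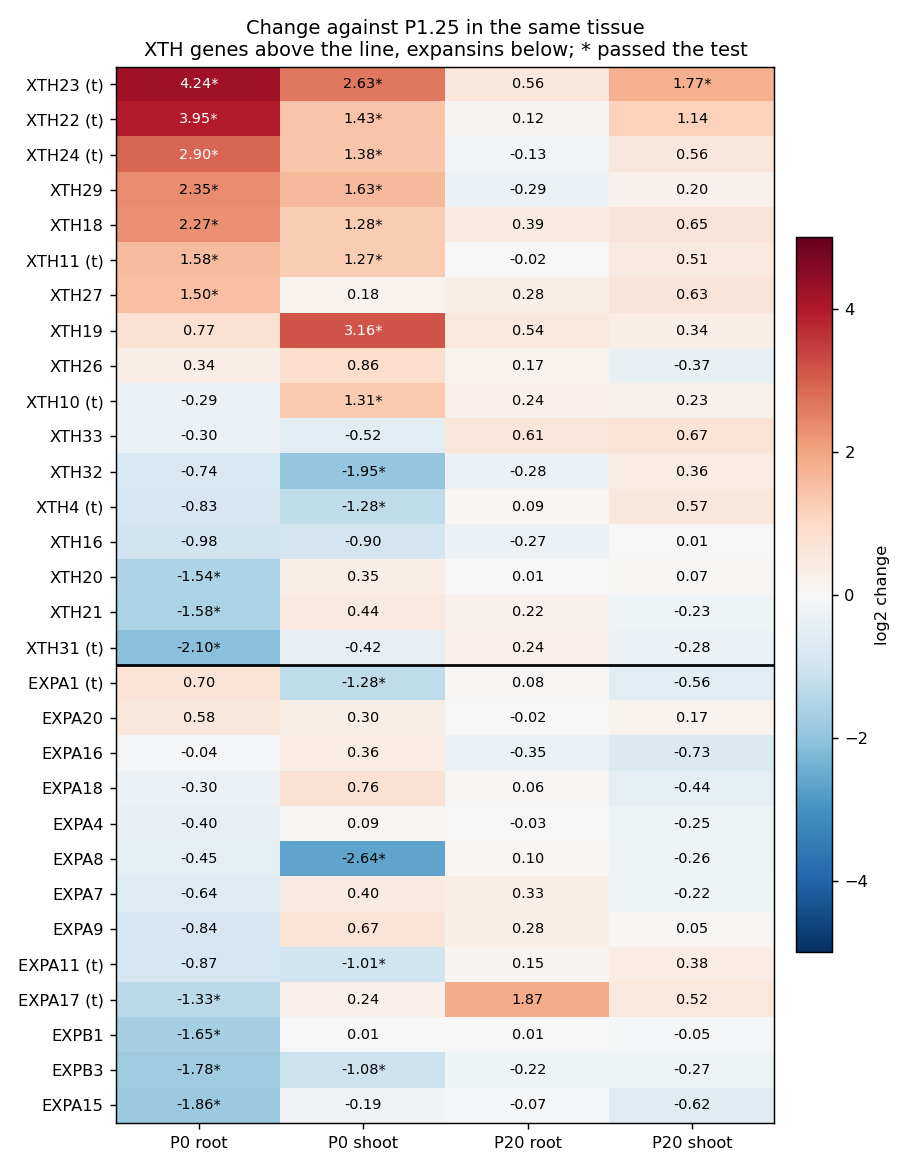
Heat map of the log2 change against P1.25 in the same tissue for the 30 members (rows, XTHs above the line and expansins below, each ordered by the P0 change in root) in 4 comparisons (columns). An asterisk marks a change that passed the test and (t) a gene named only by the study's tables. XTH23 has the highest value, 4.24 in P0 root, and EXPA8 the lowest, -2.64 in P0 shoot.

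XTH23 (AT4G25810, also called XTR6), a member known from lateral root development under salt, had the highest P0 value in root. Its log2 intensities were 11.29, 11.28 and 11.16 at P0, against 6.49, 6.82 and 7.72 at P1.25. In shoot they were 9.59, 9.62 and 9.66 at P0, against 6.85, 7.48 and 6.64. The P0 arrays lay above every control array in both tissues, and replicate 3 was the highest of the root controls. The change was 4.24 (SE 0.29, n = 3 against 3), or 18.9-fold, in root and 2.63 (SE 0.29), or 6.21-fold, in shoot.

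XTH22 (AT5G57560), known as TCH4 for its rapid induction by touch, followed. Root arrays read 10.36, 10.20 and 10.18 at P0 and 6.63, 6.33 and 5.93 at P1.25. Shoot arrays read 9.35, 9.43 and 9.58 at P0 and 8.39, 8.22 and 7.46 at P1.25. The groups did not overlap in either tissue. The change was 3.95 (SE 0.34), or 15.5-fold, in root and 1.43 (SE 0.34), or 2.69-fold, in shoot. At P1.25 XTH22 was lower in root than in shoot (difference -1.73, SE 0.34), while at P0 every root array lay above every shoot array.

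XTH24, XTH18 and XTH19 (AT4G30270, AT4G30280 and AT4G30290) stand side by side in the RefSeq gene order of TAIR10.1. The array's ability to tell these related sequences apart was not tested. XTH24, first described from meristems, read 11.49, 11.44 and 11.55 at P0 in root against 8.07, 8.32 and 9.41 at P1.25. In shoot it read 11.84, 12.07 and 12.13 against 10.84, 10.74 and 10.31. P0 was above the control throughout, by 2.90 (SE 0.46) in root and 1.38 (SE 0.46) in shoot, with replicate 3 of the root controls again nearest to P0.

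XTH18, an XTH known from growing root cells, rose in both tissues. Its root arrays read 8.35, 8.42 and 8.41 at P0 against 6.07, 6.07 and 6.22, a change of 2.27 (SE 0.28, adjusted p = 5.99e-05). Its shoot arrays read 7.51, 7.17 and 7.08 against 6.07, 6.50 and 5.35, a change of 1.28 (SE 0.28, adjusted p = 0.00288). Without replicate 3 of the shoot controls the change was 0.96, which is under the 2-fold limit.

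XTH19, known with XTH20 from the rejoining of cut flowering stems, showed the largest shoot rise of the 30 members. It read 6.12, 5.96 and 6.29 at P0 in shoot, against 3.23, 2.79 and 2.88 at P1.25. In root it read 4.94, 5.17 and 4.94 against 4.22, 4.18 and 4.35. Neither pair of groups overlapped. The change was 3.16 in shoot (SE 0.17, 8.91-fold, adjusted p = 8.98e-09) and 0.77 in root (SE 0.17, adjusted p = 0.00407), the latter under 2-fold. XTH19 lay above the array median on 3 of 18 arrays, all of P0 shoot, so the shoot fold rests on dim controls. At P1.25 root was above shoot by 1.28 (adjusted p = 2.21e-05), and the P0 shoot arrays lay above every root array of any treatment.

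XTH29 (AT4G18990), a member known from heat and drought responses, rose in both tissues. Root arrays read 6.46, 6.48 and 6.50 at P0 and 4.25, 3.99 and 4.16 at P1.25. Shoot arrays read 5.78, 5.90 and 5.56 at P0 and 4.26, 4.29 and 3.79 at P1.25. P0 lay above the control in both, by 2.35 in root (SE 0.29, adjusted p = 6.7e-05) and 1.63 in shoot (SE 0.29, adjusted p = 0.0007). XTH29 lay above the array median on 6 of 18 arrays, all of P0, so these changes rest on dim controls.

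XTH11 (AT3G48580), for which no role is given here, read 5.93, 5.78 and 5.78 at P0 in root against 4.09, 4.55 and 4.10 at P1.25. In shoot it read 6.40, 6.32 and 6.39 against 5.43, 5.28 and 4.60. The groups were apart, by 1.58 (SE 0.38) in root and 1.27 (SE 0.38) in shoot. XTH11 lay above the array median on 7 of 18 arrays and below it on every P1.25 array, so its controls were dim too.

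**Figure D2:**
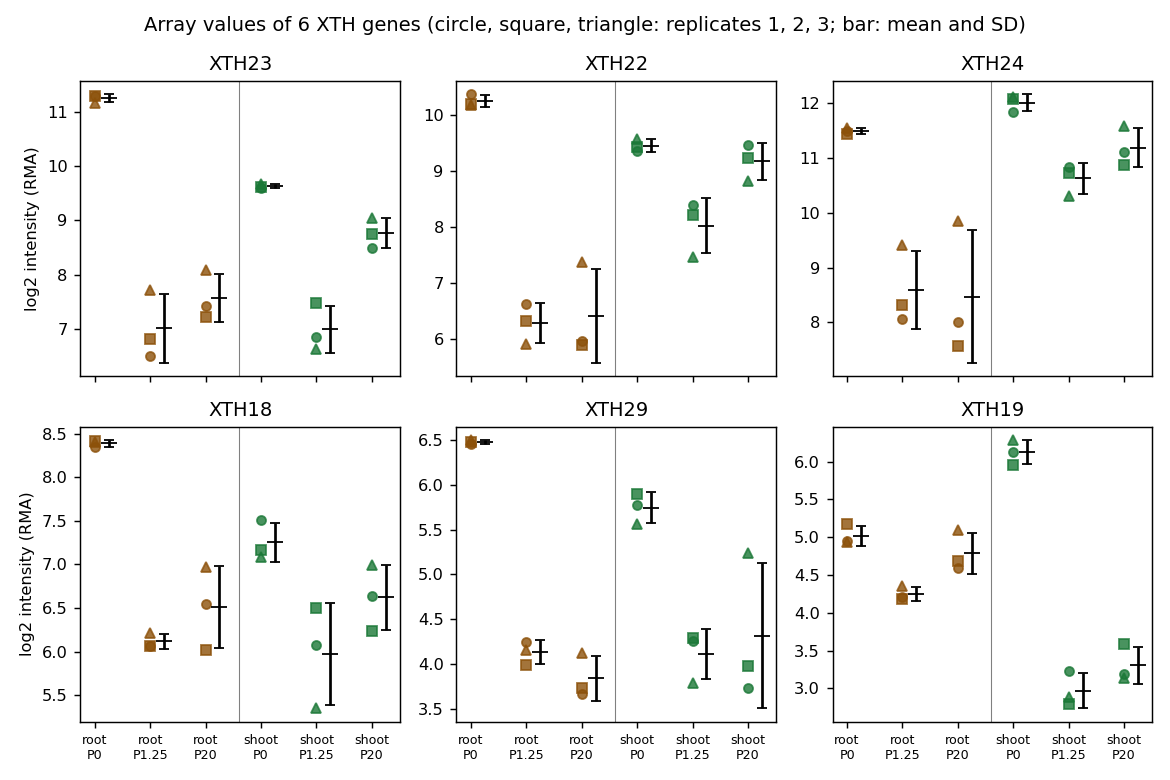
Log2 intensity (y axis) of 6 XTH genes on each array by tissue and phosphate treatment (x axis). Root is brown and shoot green, symbols give the replicate number, and the bar beside them the mean and SD of 3. In all 6 panels the P0 arrays lie above the P1.25 arrays of the same tissue, and in XTH19 and XTH24 the shoot P0 arrays also lie above the root P0 arrays.

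3 more platform-named XTHs passed in root but not in shoot. XTH27 (AT2G01850), known from the development of leaf veins, read 9.11, 8.98 and 8.95 at P0 in root against 7.57, 7.25 and 7.70, a rise of 1.50 (SE 0.21, adjusted p = 0.000185). Its shoot arrays, 9.01, 9.05 and 9.14 at P0 and 9.23, 9.13 and 8.31 at P1.25, overlapped. XTH20 (AT5G48070) and XTH21 (AT2G18800), the latter known from primary root growth, fell in root. XTH20 read 4.14, 3.68 and 3.01 at P0 against 5.44, 5.27 and 4.74 (change -1.54, SE 0.36, adjusted p = 0.00657). XTH21 read 5.38, 5.57 and 4.71 against 7.21, 6.74 and 6.46 (change -1.58, SE 0.39, adjusted p = 0.00875). In shoot the P0 arrays of XTH20, 2.53, 3.10 and 2.81, overlapped with the controls at 2.27, 2.59 and 2.54. Those of XTH21 were tightly grouped at 4.85, 4.87 and 4.74, against 4.59, 3.82 and 4.73, and just cleared them without passing the test (change 0.44, SE 0.39, adjusted p = 0.425).

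XTH31 and XTH32 (AT3G44990 and AT2G36870) are the members known to release xyloglucan ends to water, and XTH31 is known for its part in aluminium binding by root walls. XTH31 read 7.55, 7.53 and 7.31 at P0 in root against 9.82, 9.72 and 9.13, which is 4.28-fold lower and the largest root decrease of the 30. In shoot it read 8.02, 8.12 and 8.01 at P0 against 8.96, 8.60 and 7.84, and the groups overlapped. XTH32 showed the larger decrease in shoot. It read 4.93, 4.82 and 5.10 at P0 against 7.36, 7.57 and 5.75, a change of -1.95 (SE 0.38, adjusted p = 0.0014), and replicate 3 of the controls stood well below the others. In root XTH32 read 4.38, 4.33 and 4.54 against 5.03, 5.23 and 5.23, a change of -0.74 that did not pass (adjusted p = 0.18).

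XTH4 (AT2G06850), known from stems and wood formation, was lower at P0 in both tissues. It read 9.50, 9.56 and 9.47 in shoot against 11.11, 10.82 and 10.46, a change of -1.28 (SE 0.16). In root it read 8.09, 7.84 and 7.85 against 8.62, 8.93 and 8.71, a change of -0.83 (SE 0.16), which is under 2-fold. XTH10 (AT2G14620) was higher in shoot only. It read 7.14, 7.01 and 7.03 there against 5.55, 5.88 and 5.84, a change of 1.31 (SE 0.37), while its root arrays overlapped (5.90, 5.65 and 5.64 against 6.16, 6.04 and 5.87).

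4 expansins were lower in root without phosphate, and EXPA15 (AT2G03090) had the largest decrease of them. EXPA15 read 5.54, 5.54 and 5.70 at P0 in root against 7.37, 7.48 and 7.50, which is 3.62-fold lower (change -1.86, SE 0.15, adjusted p = 1.4e-06). In shoot its arrays overlapped, at 6.01, 5.79 and 5.95 against 6.04, 5.92 and 6.35. The beta-expansin EXPB1 (AT2G20750) read 4.85, 4.56 and 5.31 in root against 6.90, 6.53 and 6.25 (change -1.65, SE 0.30, adjusted p = 0.0011). Its shoot arrays, 5.15, 4.81 and 4.92 at P0 and 5.33, 4.64 and 4.89 at P1.25, overlapped.

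EXPB3 (AT4G28250) was the expansin that passed downwards in both tissues. It read 8.36, 8.26 and 8.34 at P0 in root against 9.84, 9.96 and 10.50 (change -1.78, SE 0.28, adjusted p = 0.00047). In shoot it read 7.52, 7.69 and 7.55 against 8.83, 8.47 and 8.69 (change -1.08, SE 0.28, adjusted p = 0.01), and fell just under 2-fold without replicate 1 of the shoot controls. EXPA17 (AT4G01630), known for its part in lateral root emergence, read 5.26, 5.30 and 4.89 at P0 in root against 6.57, 6.59 and 6.28, a change of -1.33 (SE 0.40). In shoot it read 5.25, 4.24 and 4.02 against 4.48, 3.43 and 4.88, with overlapping groups and a change of 0.24 (SE 0.40).

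EXPA8 (AT2G40610) showed the largest decrease in shoot. It read 5.67, 5.60 and 5.58 at P0 against 8.31, 8.20 and 8.27, which is 6.24-fold lower (change -2.64, SE 0.23, adjusted p = 1.8e-06). In root its arrays overlapped at 6.14, 5.74 and 5.81 against 6.41, 6.03 and 6.60. EXPA1 (AT1G69530), known from guard cells, was also lower in shoot, at 7.09, 7.12 and 6.97 against 8.31, 7.97 and 8.74 (change -1.28, SE 0.33). In root EXPA1 read 7.85, 7.85 and 7.93 against 6.62, 6.84 and 8.08, where replicate 3 of the controls stood above P0 and the others below it. Its root change was 0.70 (SE 0.33) with all arrays, and 1.14 and past the test with that array left out. EXPA11 (AT1G20190) was lower in both tissues. It read 4.50, 4.65 and 4.61 in shoot against 5.52, 5.34 and 5.93 (change -1.01, SE 0.13), and 4.68, 4.73 and 4.59 in root against 5.55, 5.51 and 5.55 (change -0.87, SE 0.13, under 2-fold), and these changes differed by 0.14 (SE 0.18). The shoot change was -0.84 without replicate 3 of the controls and -0.97 without replicate 1 of P0, both under 2-fold.

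The other 9 members (XTH16, XTH26, XTH33, EXPA4, EXPA7, EXPA9, EXPA16, EXPA18 and EXPA20) passed in neither tissue at P0. The lowest of their changes was -0.98 (XTH16, root) and the highest 0.86 (XTH26, shoot). XTH16 lay near the 2-fold limit in both tissues. With replicate 3 left out at both P1.25 and P20 it was lower by 1.10 in root (adjusted p = 0.0028) and by 1.15 in shoot (adjusted p = 0.00143) on the log2 scale and passed, beside changes of -0.98 and -0.90 (adjusted p = 0.0101 and 0.0125) with all arrays. EXPA20 has a second transcript, whose P0 changes were 0.38 in root and 0.16 in shoot, beside 0.58 and 0.30 for the one used.

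**Figure D3:**
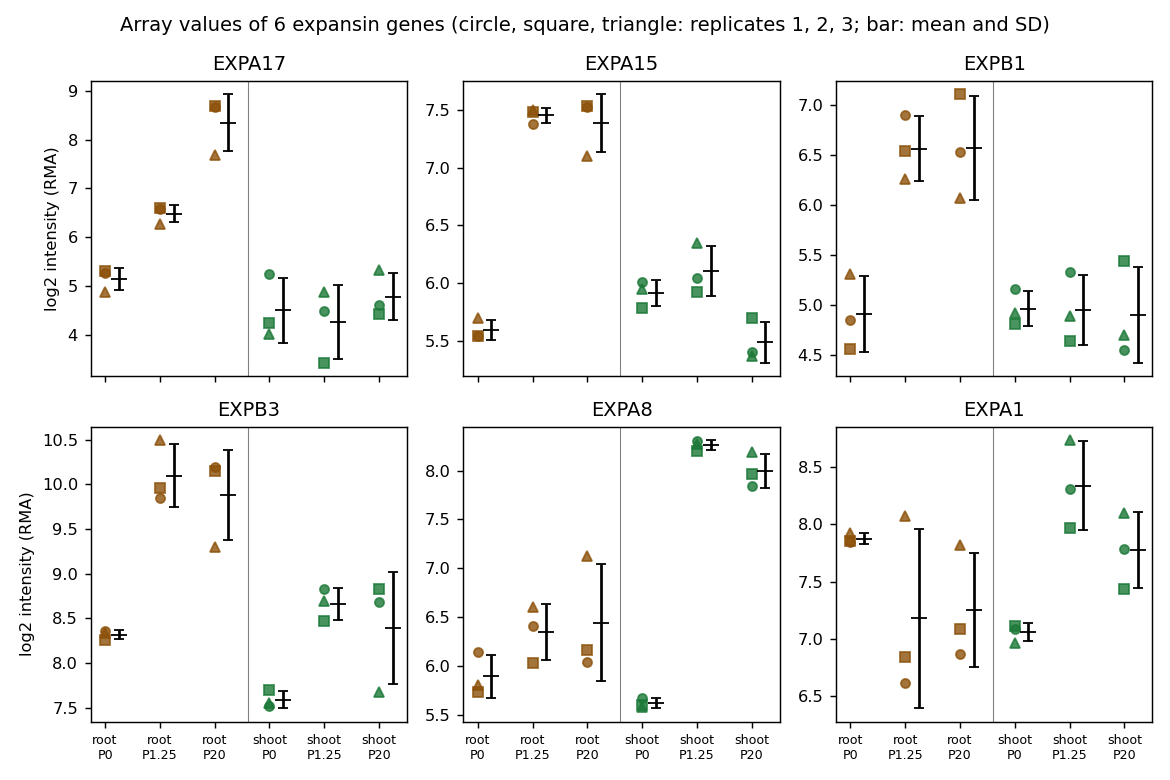
Log2 intensity (y axis) of 6 expansin genes on each array by tissue and phosphate treatment (x axis). Root is brown and shoot green, symbols give the replicate number, and the bar beside them the mean and SD of 3. EXPA15, EXPB1 and EXPB3 are lowest at P0 among the root groups, EXPA8 is lowest at P0 in shoot, and EXPA17 increases from P0 to P20 in root.

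Some members responded to P0 in root and shoot to unequal degree, which was tested as the difference of the P0 change between the tissues at an adjusted p under 0.1 and any fold. 16 members passed, 5 with the higher change in root and 11 with the lower change in root, against 17.1% of all transcripts (8.11% and 8.98%). Among the platform-named members 2 had the higher change in root and 8 the lower, which is 50% against 17.8% of platform-named transcripts (8.15% and 9.68%). XTH19 differed by -2.39 (SE 0.24, adjusted p = 3.45e-05), EXPA15 by -1.67 (SE 0.21, adjusted p = 0.0002) and EXPB1 by -1.66 (SE 0.42, adjusted p = 0.019). XTH20 differed by -1.88 (SE 0.51, adjusted p = 0.0257) and XTH21 by -2.02 (SE 0.55, adjusted p = 0.0266). On the other side stood EXPA8 with 2.19 (SE 0.33, adjusted p = 0.00077) and XTH27 with 1.33 (SE 0.30, adjusted p = 0.0101). EXPA7 and EXPA18, the pair of expansins known from root hairs, and EXPA9 passed in neither tissue at P0 but did for the difference, by -1.04, -1.07 and -1.50 (adjusted p = 0.093, 0.044 and 0.0017), and are named here after their values were seen. All 3 had a negative mean change in root and a positive one in shoot. The difference for EXPA7 was lost without any of 13 single arrays, and that for EXPA18 without replicate 1 or replicate 2 of the root controls (-0.92 and -0.94).

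**Figure D4:**
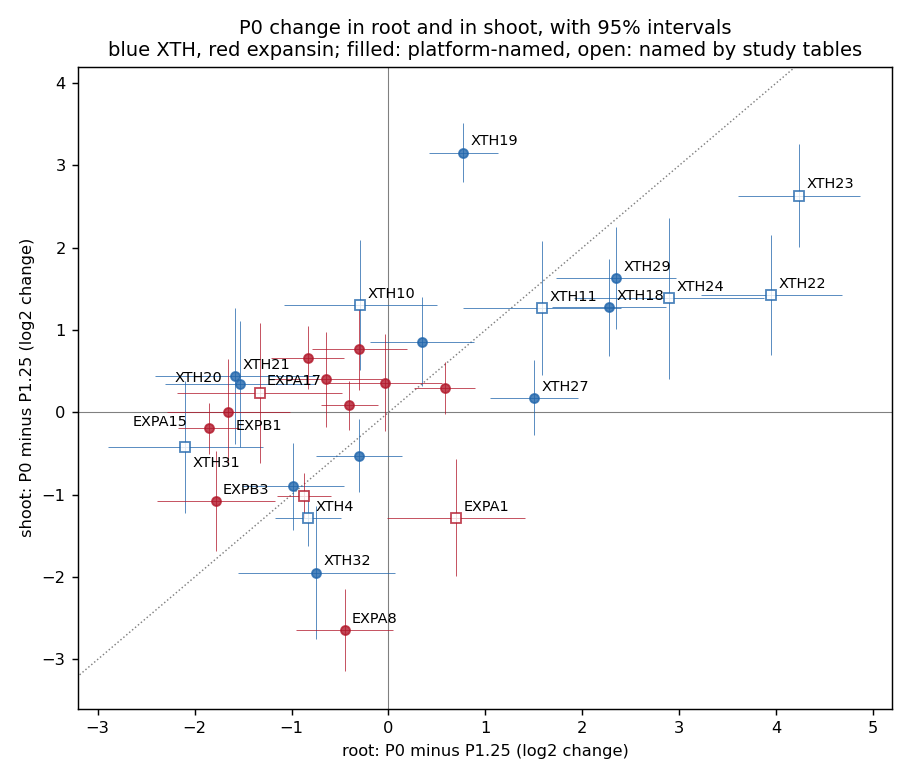
Log2 change at P0 in root (x axis) against shoot (y axis) for the 30 members, with 95% intervals of each change. XTHs are blue and expansins red, filled points are platform-named and open squares named by the study's tables, and the dotted line marks equal change. XTH19 lies farthest above the line and XTH22 farthest below it.

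At P1.25, 22 of the 30 members differed between the tissues by more than 2-fold at an adjusted p under 0.1, 13 higher in root and 9 higher in shoot, against 17.2% of all transcripts (7.26% and 9.96%). Among the platform-named members 11 were higher in root and 5 in shoot, against 16.6% of platform-named transcripts (8.53% and 8.09%). Of the 13 expansins 8 were higher in root and 3 higher in shoot. XTH20 and XTH21 had the highest root minus shoot values, 2.68 (SE 0.36, adjusted p = 2.84e-05) and 2.42 (SE 0.39, adjusted p = 0.00016), which differed by less than their SE. XTH20 lay above the array median on 0 of 18 arrays, so no fold is given for it. The root hair expansins EXPA18 and EXPA7 were higher in root by 2.04 and 1.55 (adjusted p = 4.7e-06 and 0.00033), and XTH26, also known from root hairs, by 1.19 (adjusted p = 0.00169), or 0.95 with replicate 3 left out at both P1.25 and P20. The strongest shoot preference was that of XTH4 (-2.04, SE 0.16) and XTH24 (-2.03, SE 0.46), with EXPA8 next (-1.91, SE 0.23, adjusted p = 1.1e-05).

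At P0 the organs were closer to each other in these genes. The median absolute root minus shoot difference over the 30 members was 1.41 under control supply, 1.67 with excess and 0.70 without phosphate. Over all transcripts it was 0.37, 0.35 and 0.33. The difference was smaller at P0 than at P1.25 for 21 of the 30 members, a count that was not made over all transcripts. Of the 22 members that differed at P1.25, 20 had a smaller difference at P0 and 4 a smaller one at P20. For the platform-named ones it was 14 of 16 at P0, beside 86.2% of the platform-named transcripts that differed at P1.25. 7 of the 22 changed sign at P0 (XTH19, XTH22, XTH31, EXPA1, EXPA8, EXPA15 and EXPB1). The 22 were picked at P1.25, and the part of that selection in the count was not tested. Of all 6614 transcripts that differed at P1.25 by the same test, 87.4% had a smaller difference at P0 and 61.7% a smaller one at P20, beside 90.9% and 18.2% of the 22 members. The share at P0 was thus near that of all such transcripts. For 14 of the 22 the difference of the P0 change between tissues passed the test, and in all 14 the gap was smaller at P0. Neither this count nor that of sign changes was computed over the 6614 transcripts. The gap at P1.25 and the P0 change share control arrays, and the 22 were picked there, so the 14 are not a separate result.

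The tissue markers also lay closer together at P0. The mean log2 level of the 5 root markers was 8.94 to 9.44 in P1.25 root and 8.16 to 8.29 in P0 root, and 6.40 to 6.76 in P1.25 shoot and 7.44 to 7.65 in P0 shoot. The log2 of their summed intensity overlapped in root, at 13.40 to 13.74 in P1.25 and 13.51 to 13.55 in P0, and in shoot it was 11.95 to 12.13 in P1.25 and 12.54 to 12.59 in P0. The mean level of the 5 shoot markers was 7.88 to 9.10 in P1.25 shoot and 6.50 to 6.53 in P0 shoot. Their summed intensity in shoot was 11.85 to 12.84 and 10.56 to 10.60 on the log2 scale. In root the mean of the shoot markers was 5.23 to 5.44 in P1.25 and 4.51 to 4.74 in P0, and the sum 8.60 to 9.09 and 8.03 to 8.06. All 5 shoot markers fell at P0 in shoot. Of the 5 root markers, CASP1, CASP2 and CASP4 (Casparian strip) and THAD1 (thalianol synthesis) fell in P0 root, with changes from -1.34 to -1.26 on the log2 scale, and BGLU23 read 0.05 there. In P0 shoot CASP1 (1.59) and THAD1 (1.80) rose, while CASP2 (0.78), BGLU23 (0.51) and CASP4 (-0.08) did not reach 2-fold. CASP1, CASP2, CASP4, THAD1 and the shoot markers LHCA1, LHB1B1 and PSAD1 were named only by tables that list responses of these samples. Their P0 changes are therefore a description. The platform-named markers were BGLU23 for root, and LHCB4.2 and RCA for shoot. The part of such a shift in the results on XTHs and expansins was not tested.

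**Figure D5:**
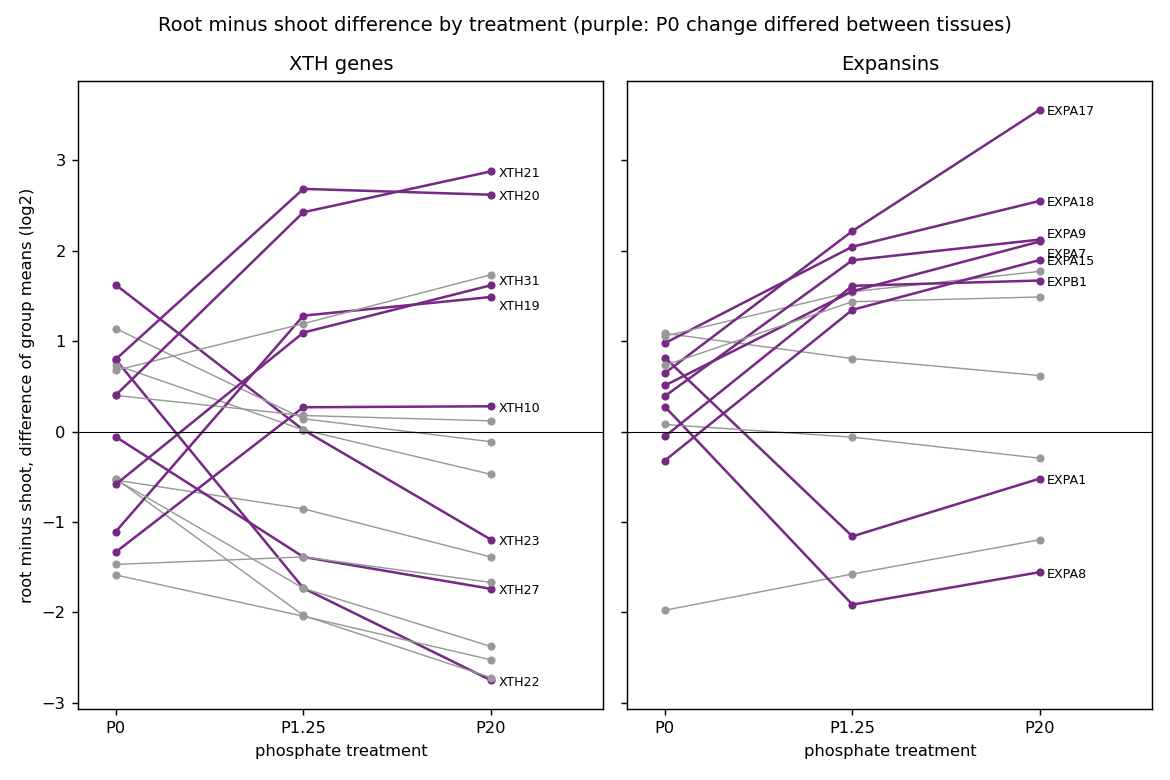
Difference of the group means, root minus shoot (y axis, log2), at P0, P1.25 and P20 (x axis) for the 17 XTHs and the 13 expansins. Each line is a gene, and purple marks the 16 whose P0 change differed between the tissues at an adjusted p under 0.1. For 21 of the 30 genes the line lies nearer to 0 at P0 than at P1.25, a count that was not made over all transcripts.

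With excess phosphate 1 of the 30 members passed the test, XTH23 in shoot, and EXPA17 in root and XTH22 in shoot also differed by more than 2-fold. In root 0 of 30 passed at an adjusted p under 0.1 and any fold (limma), beside 0.0469% of all transcripts and 0.0603% of platform-named ones, and 3 members (10%) had an unadjusted p under 0.05, beside 5.58% of all transcripts. The least-squares fit without moderation also called 0. The changes ran from -0.35 to 1.87. EXPA17, which the study reports as raised by P20 and lowered by P0, had the highest. Its root arrays read 8.68, 8.68 and 7.68 at P20 against 6.57, 6.59 and 6.28 at P1.25, and the groups did not overlap. The change was 1.87 (SE 0.40, 3.64-fold, adjusted p = 0.24), and it passed without replicate 3 of P20 (change 2.20, adjusted p = 0.0675), with replicate 3 left out at both P1.25 and P20 (adjusted p = 0.0325) and with array weights (2.01, adjusted p = 0.0278). Over all alternatives its adjusted p ran from 0.0278 to 0.756. The study counted EXPA17 among its root genes regulated by both P20 and P0, at an FDR under 0.1, while the fit with all arrays here did not call it at P20. EXPA17 got its name only from the study's tables, which list responses of these samples. These p-values are thus not independent of the naming. In shoot EXPA17 read 4.61, 4.42 and 5.33 at P20, which overlapped with P1.25, and the difference of the P20 change between the tissues, 1.34 (SE 0.56), did not pass. In root its P0 and P20 values lay on opposite sides of the same control arrays.

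In shoot 1 of 30 members passed at P20, beside 0.0365% of all transcripts (0.026% upwards) and 0.0181% of platform-named ones, and 9 (30%) had an unadjusted p under 0.05, beside 8.82% of all transcripts. The member that passed was XTH23, also named by the study, at 8.50, 8.75 and 9.05 against 6.85, 7.48 and 6.64, with no overlap. The change was 1.77 (SE 0.29, 3.42-fold, adjusted p = 0.0817), and its adjusted p ran from 0.00516 to 0.241 over the alternatives, with the rise past the threshold in 17 of 31. Leaving out any of 11 single arrays lost the call, among them replicate 1 of the shoot controls (adjusted p = 0.241) and all 6 P0 arrays, which enter only the shared spread. Its name came from a table ordered by treatment effect in these samples, so the call is not independent of the naming. In root XTH23 read 7.42, 7.22 and 8.08 at P20 against 6.49, 6.82 and 7.72, with overlapping groups and a change of 0.56 (SE 0.29, adjusted p = 0.896). In shoot its P0 value of 2.63 and its P20 value of 1.77 share the control arrays.

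XTH22 came next in shoot, at 9.47, 9.23 and 8.82 at P20 against 8.39, 8.22 and 7.46, a change of 1.14 (SE 0.34, adjusted p = 0.369) that did not pass although the arrays did not overlap. It passed in limma with array weights (1.12, adjusted p = 0.0877) and with replicate 3 left out at both P1.25 and P20 (1.04, adjusted p = 0.00544). The other 28 members of the shoot comparison lay between -0.73 and 0.67. With all arrays in the fit the platform-named members had 0 calls at P20 in either tissue, with 2 in root and 5 in shoot (10% and 25%) at an unadjusted p under 0.05, beside 5.61% and 8.57% of platform-named transcripts. In shoot XTH33 passed in limma without replicate 3 of P20 (0.96, adjusted p = 0.0277), with replicate 3 left out at both P1.25 and P20 (1.00, adjusted p = 0.022) and with array weights (0.89, adjusted p = 0.0585). EXPA15 passed there with array weights alone (-0.56, adjusted p = 0.0769). For the difference of the P20 change between the tissues 0 of 30 passed, beside 0.0104% of all transcripts, with 3 at an unadjusted p under 0.05 (limma, beside 4.66% of all transcripts) and 0 calls without moderation.

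Neighbouring wall pathways were read from lists of 32 further loci, of which 9 had a transcript. The expansin-like genes, relatives of the expansins with no known loosening activity, were all measured, and 3 of 4 rose in P0 root and 1 of 4 in P0 shoot, beside 4.69% and 6.12% of all transcripts that passed upwards. EXLA3 rose by 3.28 in root (SE 0.18, 9.69-fold, adjusted p = 4.5e-08), EXLA1 by 2.34 (SE 0.27, adjusted p = 3.7e-05) and EXLB1 by 1.78 (SE 0.28, adjusted p = 0.00036). EXLA3 and EXLA1 are neighbouring genes, and EXLA3 lay above the array median on only 3 of 18 arrays. In shoot EXLB1 rose by 3.01 (SE 0.28, adjusted p = 2.7e-06). CSLC4, the glucan synthase of the xyloglucan backbone and the only measured gene of 6 in xyloglucan synthesis, rose by 1.45 in P0 root (SE 0.13, adjusted p = 4.5e-06) and did not reach 2-fold in shoot (0.36). BGAL10, a galactosidase that trims xyloglucan side chains and the only one of 3 measured, was lower by 1.12 in root and 1.90 in shoot on the log2 scale. CESA4, a cellulose synthase of secondary walls, was lower in root by 1.10, while in P0 shoot it read 0.58 higher. COB, a membrane-anchored protein needed for oriented cellulose deposition and the other of 8 cellulose synthesis loci with a transcript, read -0.72 in root and -0.40 in shoot (adjusted p = 0.00071 and 0.0231), both under 2-fold. RHD2, the NADPH oxidase of root hair tips, was the only one of 9 root hair genes measured and read 1.02 higher in P0 shoot. BGAL10, CESA4 and RHD2 were named only by the study's tables. The 2 proton pump loci had no value here.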

How the data were processed

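The authors hybridised RNA of 18 samples, normalized the arrays by RMA in Partek Genomics Suite 6.6 and deposited log2 values per transcript. The genome build is not given in the sources used here, and every value column belonged to 1 of these samples. The log2 values were fitted as deposited with limma 3.58.1 in R 4.3.3, with 1 mean for each of 6 groups over 38408 transcripts, and p-values were adjusted by Benjamini-Hochberg over all of them. An adjusted p under 0.1 counted as a call, with more than 2-fold required for P0 and for root against shoot. The fit was tested on simulated data. Members and lists were chosen with earlier results of these data known. Array values are given for members called in at least 1 treatment comparison, EXPA17 and XTH23. Of the transcripts, 16574 had 1 gene by the platform table and 1153 more by the study's tables, which are held here only in part. Pairing by replicate number was judged by correlations of deviations, with a minimum of 0.1. Those between P20 and P1.25 all reached it in shoot (0.136, 0.130 and 0.291), while in root replicate 1 alone did not (0.077, 0.127 and 0.225). Those between P0 and P1.25 stayed below it in both tissues. Alternatives were other error models, normalizations, filters and thresholds, a replicate block and leaving out arrays. Arrays number 3 a group, which limits the precision.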

Additional observations from a re-analysis of the deposited data

Results flagged for a closer look

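The P0 change differed between root and shoot, by the interaction term at an adjusted p under 0.1, in 16 members. It was lower in root for XTH19 (-2.39), XTH21 (-2.02), XTH20 (-1.88), XTH31 (-1.68), EXPA15 (-1.67), EXPB1 (-1.66), XTH10 (-1.60), EXPA17 (-1.57), EXPA9 (-1.50), EXPA18 (-1.07) and EXPA7 (-1.04), each on the log2 scale. It was higher in root for XTH27 (1.33), XTH23 (1.60), EXPA1 (1.98), EXPA8 (2.19) and XTH22 (2.53). XTH31, XTH10, EXPA17, XTH23, EXPA1 and XTH22 were named only through tables that list responses of these samples. Leaving out single arrays lost the call for EXPA7 (13 of 18 arrays), EXPA17 (10), XTH10 (8), XTH31 (5) and EXPA18 (2), with values from -1.88 to -1.15 for EXPA17.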

How the results depend on the processing

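Of 214 counts recomputed under the alternatives, 192 stayed within 1.5 times the reported count. The counts for P0 ran from 13 to 21 in root and from 12 to 19 in shoot, that for the difference between the tissues from 11 to 23, and that for root against shoot at P1.25 from 20 to 23. The replicate block gave the same counts in all 7 comparisons (14, 14, 0, 1, 16, 0 and 22), and it changed no call of a named member. The P20 counts moved. In root 1 member, EXPA17, was called with array weights, without replicate 3 of P20 (leaving out single arrays gave 0 to 1) and with replicate 3 left out at both P1.25 and P20. In shoot 5 members were called with array weights, 4 with replicate 3 left out in this way, and 0 after quantile normalization, after centring arrays on their median or at an adjusted p under 0.05, and leaving out single arrays gave 0 to 2. The 5 were XTH22, XTH23, XTH33, EXPA11 and EXPA15, and the 4 were the same without EXPA15. With replicate 3 left out at both P1.25 and P20, 1 member, XTH22, was called for the tissue difference of the P20 change. The share of all transcripts called is not given here for any alternative, so these counts are not read as a result about the members. EXPA17 in P0 shoot changed sign, from 0.24 to -0.18 without replicate 2 of P1.25 and to -0.14 without replicate 1 of P0, and leaving out single arrays gave -0.18 to 0.55. XTH18, EXPB3 and EXPA11 in P0 shoot lie near the 2-fold limit and fell under it in some settings, as did XTH26, XTH31 and EXPA1 for root against shoot at P1.25. Of 6413 values recomputed for the 30 members, 76 lost a call and 64 gained one, 13 of them under another fold rule and 16 with replicate 3 left out at both P1.25 and P20, and 0 were called in the opposite direction. Those 16 were EXPA1 and XTH16 in P0 root, XTH16 in P0 shoot, XTH11 at P1.25, 5 at P20 and 7 for the difference of the P0 change. The causes were not tested. A member without a call is not shown to be unchanged with 3 arrays a group.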
